A study of Rattus norvegicus with 12 samples.

Results

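The effect of VSL#3 on the colon of separated rats was measured by the comparison of Group D with Group M, 8 of the 12 rats of the series. All rats were male Wistar rats that underwent colorectal distension and were sacrificed at day 60. In both groups the pups underwent neonatal maternal separation (NMS) for 180 min daily from day 2 to day 14. Rats of Group M (M5 to M8) received placebo by gavage, and rats of Group D (D9 to D12) received VSL#3, a mixture of probiotic bacteria, from day 3 to day 60, at 1.8e10 in 100 µL per the labels, which give no unit for the dose. The study's methods state a slightly lower dose. Group C (C1 to C4) was not separated, received placebo and serves here as the background level. The study analysed 11 arrays, with D9 to D11 in Group D, and gives no reason for the absence of D12. Counts are therefore given without D12 first and with D12 beside them. RNA of a colon segment of each rat was hybridized to a 1-colour array of its own with 30367 probes, matched to 17524 genes. A level is the log2 signal minus the log2 of the array's 75th percentile signal, so that 0 is the 75th percentile, and a difference is Group D minus Group M.

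The colon wall holds an epithelium that takes up salt, water and bacterial fatty acids, beneath it a mucosa rich in lymphocytes, plasma cells and macrophages, and around these smooth muscle with the enteric nervous system and the interstitial cells of Cajal, which pace its contractions. Lymphoid follicles lie in the wall at intervals. Injury or distension of a tissue is known to induce immediate early genes, chemokines, cytokine receptors of the interleukin-6 family and matrix genes of wound repair. In tissue of this kind, fewer cells of a type and less RNA per cell cannot be told apart. The markers of the labelled tissue were present in every rat, with levels of Muc2, the main mucin of goblet cells, between 4.50 and 5.91.

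With p-values of limma adjusted by Benjamini-Hochberg across the array, 52 probes changed between Group D without D12 and Group M at an adjusted p of at most 0.05, which is 0.171% of the probes. Of these, 25 rose and 27 fell in Group D. With all 12 arrays 6 probes changed, or 0.0198%, and all 6 were among the 52. Without D12, 2345 probes had an unadjusted p of at most 0.01, of which 52.1% were higher in Group D. The number was 1116 with D12. This share of higher probes was 62.9% after quantile normalization, 63.7% in the authors' table and 68.7% after a shift of each array to its median. Counted by genes, with 1 probe per gene, 4.72% were higher and 4.3% lower in Group D without D12 by the same unadjusted threshold, and 2.16% higher and 2.08% lower with D12. The median difference over all genes was 0.02. The count of 52 rested on single rats. It was 4504 without M6 and between 1 and 74 when any other rat of the 11 was left out, with the lowest value without D10.

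Some features of the samples stand beside every result below. First, all arrays of Group D lay on 1 slide and those of Groups C and M on another, and Group M alone lay in the second row of its slide. Slide and treatment cannot be told apart, nor can array row and Group M. Second, the rats of a group differed in their content of lymphoid transcripts. The mean level of 12 B cell markers, relative to the mean of Group C, was 3.41, 2.63 and 2.94 in M5, M7 and M8 but -1.18 in M6. In Group D it was -1.61, 0.10 and -0.42 in D9, D10 and D11 but 3.89 in D12. In Group C it was 2.71 in C2 and -1.24, -0.84 and -0.63 in the other rats. High and low rats therefore occurred in all 3 groups, and the groups overlapped. None of the 12 B cell markers and none of 17 T cell markers passed the unadjusted threshold of 0.01 in either direction, with medians of -2.81 and -1.26 without D12 and -1.57 and -0.42 with it. Of 10 genes of MHC class II, which present antigen, none passed either, and their median was -0.95 without D12 and -0.39 with it. Medians were also taken from a fit with the B cell level of each rat as a covariate, chosen after seeing the data. Below they are given for the cell cycle and absorptive colonocytes. Without D12 this fit moved the median from -0.95 to -0.03 in MHC class II and from -1.19 to -0.43 in activated endothelium. It moved from -0.57 to -0.29 in macrophages and monocytes, 0.66 to 0.26 in salt and water transport and 0.51 to 0.14 in xenobiotic metabolism. In some lists it grew in size, such as plasma cells, from -0.66 to -0.78.

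**Figure D1:**
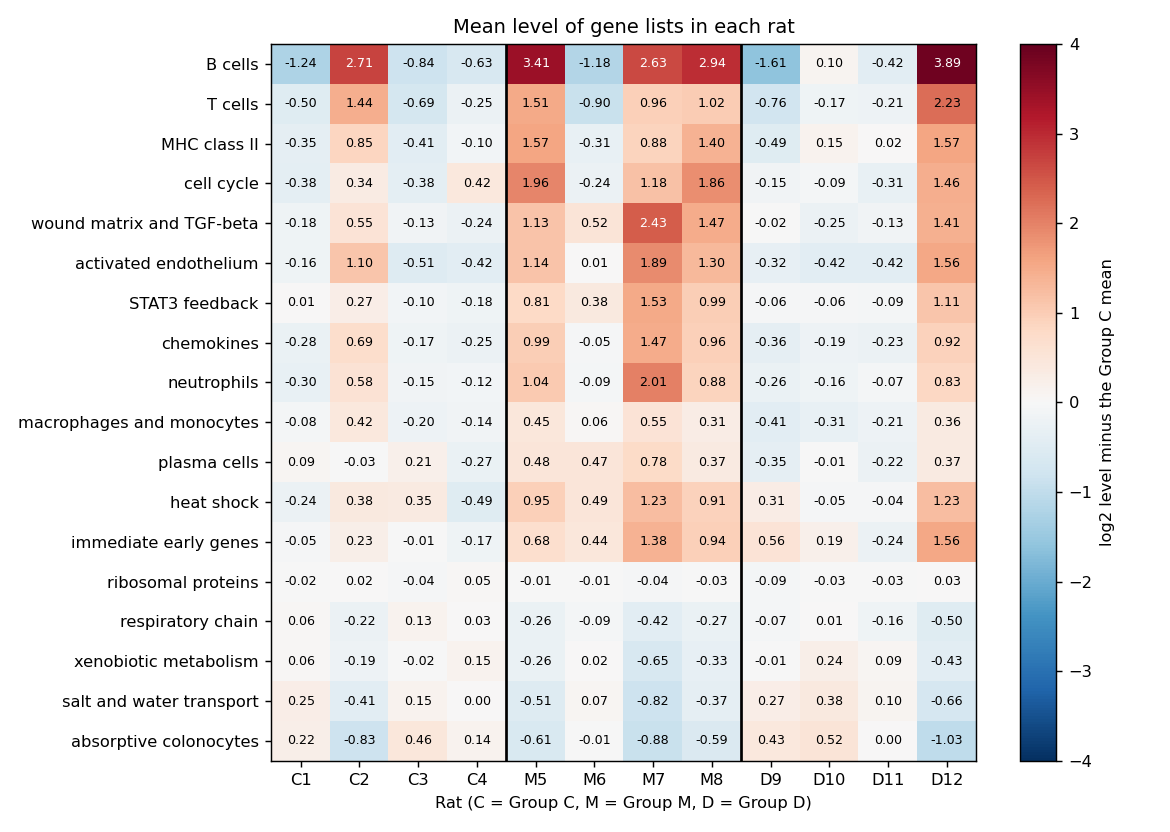
Mean log2 level of the members of 18 gene lists (rows) in each of the 12 rats (columns), minus the mean of Group C, with the value printed in each cell. M5, M7, M8 and D12 lie above M6, D9, D10 and D11 in the lymphoid, cell cycle and wound lists, with M6 at 0.52 between them in the last, while ribosomal protein genes lie between -0.09 and 0.05 in every rat.

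Genes that fell in Group D without D12 were led by Thbs1, which encodes thrombospondin 1, a matrix protein that activates TGF-beta. Its level was -3.46, -3.08, -2.04 and -2.72 in Group M and -5.90, -6.25 and -6.08 in D9, D10 and D11, whereas D12 was at -2.42. The 3 rats lay below every rat of Group M and D12 lay among them. The difference was -3.25 ± 0.40 (SE), a 9.53-fold lower signal, with an adjusted p of 0.0392 by limma, and with D12 it was -2.34 ± 0.76 with an adjusted p of 0.277. Group C was at -5.57 ± 0.72 (SD, n = 4). Arc, an activity-regulated immediate early gene, was at -1.53, -2.34, -1.37 and -1.38 in Group M, at -4.05, -4.61 and -4.87 in D9 to D11 and at -0.59 in D12. D12 was thus above the whole of Group M for this gene, and the difference of -2.86 ± 0.42 without it (adjusted p = 0.0489) became -1.88 ± 0.81 with it (adjusted p = 0.393).

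Rcan1, an inhibitor of the phosphatase calcineurin, was read by 2 probes that fell together. The brighter probe was at 2.12, 1.60, 2.71 and 2.28 in Group M, at 0.62, 0.44 and 0.26 in D9 to D11 and at 2.71 in D12, a difference of -1.73 ± 0.23 without D12 (adjusted p = 0.0427 by limma). The dimmer probe gave -2.38 ± 0.38. The mean of Group C, 0.49 ± 0.19 (SD, n = 4) on the brighter probe, lay within the range of D9 to D11. Samd4a, an RNA-binding translational repressor, fell by 2.12 ± 0.27 on the log2 scale, and Rab7b, a small GTPase of late endosomes, by 2.52 ± 0.36. Arsi, a sulfatase, fell by 2.13 ± 0.33, and C3h11orf96, of no role known here, by 1.34 ± 0.19. In each of these 4 genes D12 lay above all of D9 to D11. For Rab7b the mean of Group C, -4.92 ± 0.74 (SD, n = 4), lay between those of the separated groups.

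Has2, which makes hyaluronan, and Osmr, the receptor of oncostatin M, fell as well but approached the background. Has2 was well above background in all of Group M, at -5.60, -5.93, -4.62 and -5.49, and in none of D9 to D11, at -7.80, -7.79 and -8.16, so its signal was at least 4.57-fold lower. D12, at -6.38, was also below all of Group M. Osmr was at -5.04, -5.49, -3.90 and -4.68 in Group M and at -6.93, -6.97 and -7.43 in D9 to D11, of which 1 was well above background, and at -4.96 in D12.

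Genes that rose in Group D without D12 had a more varied function. The strongest was Adh4, an alcohol dehydrogenase that also oxidizes retinol. Its brighter probe (rn4 chromosome 2, 235969121 to 235969180) was at -7.53, -6.36, -5.13 and -7.38 in Group M and at -3.54, -2.56, -2.96 and -4.81 in D9 to D12. Every rat of Group D, D12 included, was above every rat of Group M. The difference was 3.58 ± 0.51 without D12 (adjusted p = 0.0489 by limma) and 3.13 ± 0.56 with it (adjusted p = 0.121). The second probe (235967986 to 235968045) gave 4.50 ± 0.61. Only 2 of the 4 Group M arrays were well above background on the first probe and 1 on the second. Group C was at -2.52, -2.53, -2.03 and -1.91 on the first probe, above every rat of both separated groups. Nat8f5, of the family of N-acetyltransferase 8 genes, was not well above background in any Group M rat and was at -5.29, -5.65 and -5.51 in D9 to D11, at least 4.67-fold higher (adjusted p = 0.00839), with -7.31 in D12.

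Ereg, which encodes the EGF receptor ligand epiregulin, was at -5.84, -4.91, -4.69 and -5.47 in Group M, at -2.50, -3.46 and -3.37 in D9 to D11 and at -5.31 in D12. It rose by 2.11 ± 0.32 (adjusted p = 0.0489 by limma) without D12. Ccl5, a chemokine of T cells and other leukocytes, was at -1.52, -0.96, -1.84 and -1.80 in Group M and at 0.27, -0.35 and -0.03 in D9 to D11, with D12 at -1.30 and Group C at -1.16 ± 0.20 (SD, n = 4). It rose by 1.49 ± 0.23 and was the one chemokine of 30 that passed the adjusted threshold. Cyp17a1, a steroid hydroxylase, rose by 1.43 ± 0.21, from between -3.42 and -2.70 in Group M to -2.11, -1.34 and -1.77 in D9 to D11, with D12 at -3.04. Slc9a5, a sodium-proton exchanger, rose by 1.40 ± 0.22, and in this gene all 4 rats of Group D, from -3.08 to -2.11, were above Group M, from -4.04 to -3.57.

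Olr35, named as an olfactory receptor, was at -4.60, -5.88, -5.70 and -4.69 in Group M and at -2.87, -2.76, -2.60 and -4.40 in D9 to D12, a rise of 2.48 ± 0.34 without D12. Klhl7, a substrate adaptor of a ubiquitin ligase, rose by 1.0 ± 0.15 and Il1rap, the accessory protein of the interleukin-1 receptor, by 0.73 ± 0.12. The 2 other probes of Il1rap, neither well above background on any array, gave 0.19 and 0.38 and did not pass. Among the 52 probes, the level in D12 was nearer to the mean of D9 to D11 in 17 and nearer to the mean of Group M in 35. These probes were called without D12, and a rat left out of such a choice tends to lie nearer to Group M. The count therefore does not characterize D12. The mean of Group C was nearer to D9 to D11 in 37 and nearer to Group M in 15.

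**Figure D2:**
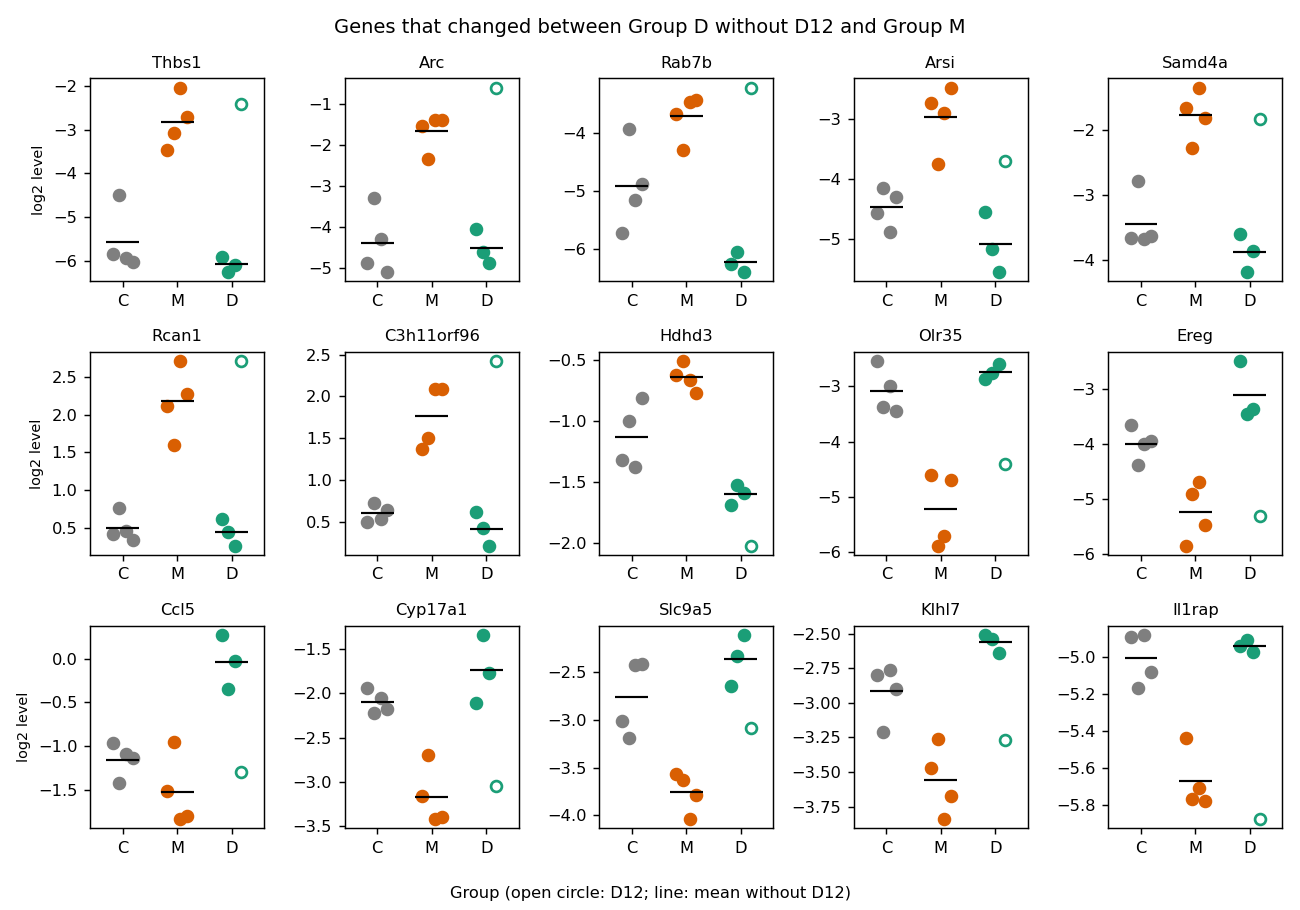
Log2 level (vertical axis) of 15 genes in each rat of Groups C, M and D, with the mean of each group without D12 as a line and D12 as an open circle. D9 to D11 lie apart from all rats of Group M in each panel because the genes were chosen for it. D12 was not in the fit, but each gene had to be well above background on every array, D12 included. Ascl3 and Mrps10, which also passed the adjusted threshold with D12, are left out of these panels. The position of D12 is therefore not independent of the choice. D12 lies with Group M for Thbs1 and Rcan1 but beyond D9 to D11 for Hdhd3.

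In the 6 probes that passed with all 12 arrays, all of D9 to D12 lay on one side of all of Group M. A choice with D12 in the fit favours this, and Adh4 and Slc9a5 above did the same. Ascl3, which encodes a basic helix-loop-helix factor of the achaete-scute family (rn4 chromosome 1, 167345569 to 167345628), was at -2.91, -3.16, -2.59 and -2.38 in Group M and at -5.30, -5.94, -6.20 and -6.05 in D9 to D12. Group C was at -2.75, -3.63, -2.93 and -3.14, so that only the rats given VSL#3 were low. The difference from Group M was -3.11 ± 0.25 with D12 (adjusted p = 0.00103 by limma), and without D12 the difference from Group C was -2.70 (adjusted p = 0.0256). Ascl3 was thereby 1 of only 2 probes that changed between Group D and Group C. The slide also separates these rats from both other groups, and its part cannot be told apart.

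Mrps10, which encodes a protein of the small mitochondrial ribosome (rn4 chromosome 9, 9077319 to 9077378), had the lowest p of all probes. It was at -2.92, -2.98, -2.94 and -2.77 in Group M and at -4.73, -4.85, -5.18 and -5.38 in D9 to D12, a difference of -2.13 ± 0.14 with all arrays (adjusted p = 0.000187 by limma). Group C, at -5.16, -5.02, -5.16 and -5.06, was at the level of Group D, so it was Group M that stood apart. Bhlha15, a transcription factor of secretory cells such as plasma cells, fell by 0.89 ± 0.11 with all arrays (adjusted p = 0.0395), from -1.49 ± 0.18 (SD, n = 4) in Group M, against -2.69 ± 0.03 in Group C. Group D, from -2.53 to -2.17, lay between the other groups without overlap. In the unnamed probe A_64_P053331, LOC681367 and the transcript ENSRNOT00000054868 Groups C and D overlapped and Group M stood apart, the last of them with Group M low. Group M alone lay in row 2 of its slide.

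**Figure D3:**
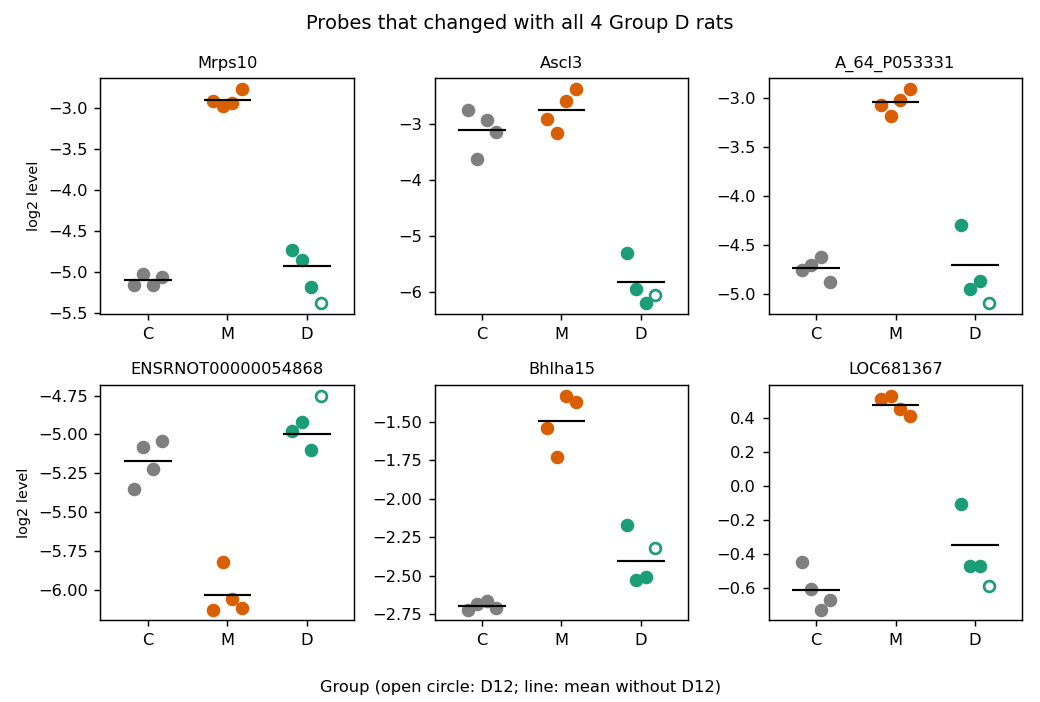
Log2 level (vertical axis) of the 6 probes that changed between Group D and Group M with all 12 arrays, in each rat of Groups C, M and D, with the mean without D12 as a line and D12 as an open circle. In Ascl3 Group D lies below both other groups, in Bhlha15 it lies between them, and in the other 4 probes Group C overlaps Group D while Group M lies apart.

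Hdhd3, a hydrolase-like gene, fell without D12 by 0.96 ± 0.14 (adjusted p = 0.0489 by limma) and was lower still in D12, at -2.02 against -1.69, -1.52 and -1.59. Its second probe gave -0.84. With D12 it missed the adjusted threshold (adjusted p = 0.0692). Over all genes, all of D9 to D12 were above all of Group M in 2.95% and below in 2.75%, against 9.75% and 8.18% for D9 to D11 alone. The 60 gene lists hold 937 genes in all. Of these, 21 were above and 30 below in all 4 rats, which is near the shares over all genes. Among those below were Ccr2, the receptor of Ccl2 on monocytes, at -5.10, -5.56, -4.48 and -5.10 in Group M and -6.26, -6.66, -6.28 and -6.56 in D9 to D12, and Myocd, the coactivator of smooth muscle genes, at -2.06, -2.87, -1.98 and -2.24 against -3.44, -3.86, -3.55 and -3.25. Postn, the matrix protein periostin, was at 1.78, 1.02, 1.66 and 1.89 against 0.72, 0.36, 0.84 and -0.03. Their adjusted p with all arrays was 0.101, 0.136 and 0.150, so none passed.

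The lists of genes were then described by the number of members at an unadjusted p of at most 0.01 and the median difference, to be read against 4.72% higher, 4.3% lower and a median of 0.02 over all genes. Of the 937 genes on lists, 49 (5.23%) were higher and 92 (9.82%) lower without D12, and 22 and 35 with it. The lists were chosen with earlier results of these data known. A share above that of all genes may therefore stem from the choice and is a description only. Among genes of wound matrix and TGF-beta signalling several were lower. Of 23 measured, 8 were lower and 0 higher, with a median of -1.26, and with D12 3 were lower and the median was -0.87. Timp1, an inhibitor of matrix proteases, was at 5.20, 3.95, 6.78 and 5.51 in Group M, at 0.60, 0.46 and 0.20 in D9 to D11 and at 4.87 in D12, a difference of -4.94 ± 0.85 without D12 (adjusted p = 0.0602 by limma). In Group C it was at 3.82 in C2 and between 0.13 and 1.12 in the others. Adamts4, a protease of proteoglycans, was well above background in 3 of 4 rats of Group M and in none of D9 to D11, and was at least 3.21-fold lower. For both genes D9 to D11 lay below Group M and D12 lay within its range.

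Signalling downstream of interleukin-6 type cytokines had the highest share of lower members. Of 11 genes of STAT3 signalling and its feedback, 7 were lower and 0 higher, with a median of -0.94, and 2 were lower with D12. Socs3, the feedback inhibitor of the pathway, was at -2.35, -3.12, -0.99 and -2.24 in Group M, at -3.94, -3.93 and -3.85 in D9 to D11 and at -1.08 in D12. The kinase Pim1 was at -2.80, -3.37, -2.46 and -3.03 in Group M and at -4.21, -4.66, -4.11 and -2.99 in D9 to D12, with a difference of -1.41 ± 0.26 without D12. Bcl6, a repressor of transcription, differed by -1.26 ± 0.35, but M6 at 0.50 lay within the range of D9 to D11. Osmr is the member of this list that passed the adjusted threshold, and its ligand Osm was lower by 0.78 ± 0.22 without passing it.

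Of 30 chemokines measured, 8 were lower and 1, Ccl5, was higher, with a median of -0.35, and 3 were lower and 2 higher with D12. The ligands of monocyte receptors led them. Ccl2 was at 2.78, 1.11, 4.71 and 2.93 in Group M, at -0.87, -0.90 and -1.57 in D9 to D11 and at 2.73 in D12, a difference of -4.0 ± 0.79 without D12 (adjusted p = 0.0729 by limma). Ccl7 was at 0.60, -0.72, 2.38 and 0.81 in Group M and at -2.02, -2.65, -3.32 and -0.12 in D9 to D12. Both lay outside the range of Group M in D9 to D11 and within it in D12. Ccl17, a ligand of a chemokine receptor on T cells, was at -0.78, -4.63, -0.71 and -1.02 in Group M, and between -5.37 and -4.92 in D9 to D11, so that M6 lay close to Group D. Cxcl2, which attracts neutrophils, was at -3.31, -4.46, 0.43 and -2.33 in Group M and at -5.55, -5.95 and -5.86 in D9 to D11, with D12 at -0.85. In some chemokines D12 was low too. Ccl11, the eosinophil chemokine eotaxin, was at 4.43, 2.32, 3.68 and 3.95 in Group M against 2.17, 2.20, 2.02 and 1.75 in D9 to D12, and Ccl12 was at -2.21, -4.08, -1.05 and -2.88 against -5.36, -4.71, -5.57 and -5.81.

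The promoter of Cxcl2 is shown because NF-kappaB is its textbook regulator and the subunit gene Nfkb1 was lower too, at 0.15, -0.37, 0.61 and 0.31 in Group M against -0.65, -0.72 and -0.70 in D9 to D11 and 0.87 in D12. Promoters were taken from RefSeq (GRCr8), 250 bases before to 50 after the start of a gene, and searched on both strands. The Cxcl2 window, chr14:17467206-17467505 on the minus strand, holds 1 match to the NF-kappaB site, in capitals.
Cxcl2: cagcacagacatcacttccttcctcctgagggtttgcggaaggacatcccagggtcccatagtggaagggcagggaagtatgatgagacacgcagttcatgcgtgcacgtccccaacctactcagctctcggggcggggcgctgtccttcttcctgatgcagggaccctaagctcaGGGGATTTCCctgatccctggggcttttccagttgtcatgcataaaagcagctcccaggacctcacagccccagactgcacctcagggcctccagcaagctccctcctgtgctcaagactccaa
Of the 24 chemokines with a promoter in the table, 7 hold such a match, as do 7.60% of all 27457 promoters. The match is a description of the sequence and says nothing of binding in these rats.

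Calls in the lists of cytokines, NF-kappaB genes and activated endothelium were lost with D12. Of 21 cytokines 3 were lower and 0 higher, namely Il10, the anti-inflammatory cytokine, by 2.71 ± 0.65, the growth factor Csf2 and Osm. Csf2, well above background in 3 of 4 rats of Group M and in none of D9 to D11, was at least 2.64-fold lower, and Il10 was well above background in 1 of D9 to D11. Of 11 NF-kappaB subunits and feedback genes 2 were lower, Nfkb1 and Tnfaip2, a gene induced by tumour necrosis factor. Of 5 markers of activated endothelium 2 were lower, with a median of -1.19. With D12 0 members of these 3 lists passed in either direction, and the median of the endothelial list was -0.76. Selp, the adhesion molecule P-selectin, was at -1.93, -2.87, 0.28 and -1.45 in Group M and at -4.34, -3.97, -4.34 and -0.61 in D9 to D12, and Icam1 was at 0.36, -0.63, 0.95 and 0.51 against -1.11, -1.23, -1.41 and 1.09. A second probe of Selp, well above background on 1 array, gave -0.66 and did not pass. The general endothelial markers Pecam1 and Cdh5 differed by -0.36 ± 0.17 and -0.03 ± 0.11, and 0 of 12 endothelial markers passed in either direction. Of 28 interferon-stimulated genes 1, Gbp2, was lower without D12, or 3.57%, against 4.3% of all genes. With D12 0 were lower and 1 was higher. Of 10 genes that process antigen for MHC class I none passed. Of 17 complement genes 2 were lower and 0 higher, both without and with D12, or 11.8% lower without D12 against 4.3% of all genes.

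Immediate early genes, which neurons and other cells switch on within minutes of a stimulus, did not move as a block. Of 30 measured, 6 were lower and 2 higher, with a median of -0.27. With D12 0 were lower and 2 higher, with a median of -0.08, so that every lower call was lost. Beside Arc and Rcan1, Fosl1 was at -0.80, -1.26, 0.94 and -0.02 in Group M, at -4.38, -6.70 and -7.31 in D9 to D11, and at 0.48 in D12. The nuclear receptor Nr4a3 was at -3.65, -2.65, -2.79 and -1.86 against -4.58, -5.66, -5.86 and -1.04. Fos and Jun, the classic members, differed by 0.23 and 0.24 and did not pass. Of the 2 that were higher, the nuclear receptor Nr4a2 differed by 0.76 and the AP-1 subunit Jund by 0.35.

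Heat shock genes, whose proteins refold other proteins under stress, were lower in 5 of 14 and higher in 0, with a median of -0.52, and in 0 with D12. Hspa1b, the inducible Hsp70, was at 4.20, 2.65, 4.46 and 3.76 in Group M, at 0.93, 0.23 and -0.29 in D9 to D11 and at 4.66 in D12, a difference of -3.48 ± 0.64 without D12 (adjusted p = 0.0690 by limma). Cryab was at 5.4, 4.12, 5.42 and 4.65 against 2.68, 1.88, 2.98 and 4.90. Hspb1 was at 4.63, 3.52, 4.42 and 3.93 against 2.91, 2.11, 2.56 and 4.25, and Hsph1 at -1.97, -2.35, -1.28 and -1.71 against -2.43, -3.06, -3.24 and -1.47. In all 4 genes D9 to D11 lay below Group M and D12 within or above it. The constitutive Hspa8 differed by 0.01. A second probe of Hspa1b, not well above background on any array, gave -0.01.

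The promoters of Hspb1 and Hsph1 are shown as those of members that were lower together. The Hspb1 window, chr12:26432252-26432551 on the minus strand, holds 2 matches to the heat shock element GAANNTTC, and the Hsph1 window, chr12:10427118-10427417 on the plus strand, holds 1, all in capitals.
Hspb1: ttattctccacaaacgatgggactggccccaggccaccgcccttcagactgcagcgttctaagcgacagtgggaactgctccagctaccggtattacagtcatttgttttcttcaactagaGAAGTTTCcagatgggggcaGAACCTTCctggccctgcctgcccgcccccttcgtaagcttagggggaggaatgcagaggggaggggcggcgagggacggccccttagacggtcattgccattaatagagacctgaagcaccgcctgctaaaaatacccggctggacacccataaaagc
Hsph1: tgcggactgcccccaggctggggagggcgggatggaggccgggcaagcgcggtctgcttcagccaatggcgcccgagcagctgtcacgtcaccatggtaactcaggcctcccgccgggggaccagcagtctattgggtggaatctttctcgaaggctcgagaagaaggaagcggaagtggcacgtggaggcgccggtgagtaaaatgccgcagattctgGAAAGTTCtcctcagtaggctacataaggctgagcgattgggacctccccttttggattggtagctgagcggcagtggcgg
The element is in 9 of the 10 heat shock genes whose promoter the RefSeq set holds, against 8.34% of all promoters. Members that did not differ, such as Hspa8 and Dnajb1, hold it as well.

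Markers of several leukocytes were lower. Of 17 markers of macrophages and monocytes 8 were lower and 0 higher, with a median of -0.57, and 3 were lower with D12. Msr1, a scavenger receptor, was at -3.70, -4.38, -3.23 and -4.13 in Group M and at -5.41, -5.05, -5.17 and -4.38 in D9 to D12. Siglec1 of resident macrophages was lower by 0.91 ± 0.23 and Cd68 by 0.67 ± 0.20. Both probes of Csf1r, the receptor macrophages depend on, gave a negative difference. The brighter gave -0.52 ± 0.18 and did not pass, and the other gave -0.73 ± 0.22 and did. Of 8 plasma cell markers 4 were lower and 0 higher, with a median of -0.66, and 1 was lower with D12. Mzb1, which assists the secretion of immunoglobulin, was at -0.16, -0.86, -0.48 and -0.42 in Group M, at -2.16, -1.36 and -2.07 in D9 to D11 and at -0.19 in D12, with an adjusted p of 0.0542 by limma. Derl3 was lower in all 4 rats of Group D, from -1.45 to -0.63 against -0.56 to 0.20, while Jchain, the joining chain of secreted antibodies, differed by -0.52 ± 0.27 and did not pass. Irf4 and Tnfrsf17 were lower by 1.70 ± 0.34 and 0.70 ± 0.18. The M6 rat, low in B cell markers, was as high in the plasma cell list (0.47) as M5, M7 and M8 (0.37 to 0.78).

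The mast cell protease Tpsab1 was at -1.16, -3.82, -1.36 and -2.14 in Group M, at -5.73, -6.15 and -4.29 in D9 to D11 and at -3.74 in D12, and Tpsb2 was lower by 0.85 ± 0.21. The other defining mast cell markers Cpa3 and Cma1 differed by -0.38 ± 0.28 and -0.81 ± 0.43 without passing, and 2 of 9 markers were lower, both without and with D12. Of 15 neutrophil markers 3 were lower and 1 higher. With D12 1 was lower and 0 higher. Trem1, well above background in 3 of 4 rats of Group M and in none of D9 to D11, was at least 4.92-fold lower, and the defining markers S100a8 and S100a9, at -2.22 ± 0.94 and -2.09 ± 0.94, did not pass, since S100a8 lay between -4.89 and 0.15 in Group M. Gzma and Gzmm, proteases of cytotoxic lymphocytes, went the other way and were higher by 1.11 ± 0.33 and 1.05 ± 0.27, while Gzmb differed by -0.51 ± 0.33. Of 9 dendritic cell markers 2, Batf3 and Clec9a, were lower. With D12 0 cytotoxic and 0 dendritic cell markers passed. Among 5 eosinophil markers 0 passed.

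Genes of the cell cycle were lower in 5 of 26 and higher in 0, with a median of -1.38, and in 0 with D12. Rrm2, which makes the building blocks of DNA, was at 2.53, 0.10, 1.95 and 2.36 in Group M, at -0.44, -0.03 and -0.34 in D9 to D11 and at 2.15 in D12. Ccna2 was at 0.42, -2.34, -0.31 and 0.31 against -2.36, -2.41, -2.62 and -0.07, so that M6 lay at the edge of D9 to D11. A second probe of Ccna2 gave -1.95 and did not pass. M5, M7, M8 and D12 were high in this list as in the B cell list, but in Group C the highest rat was C4 at 0.42. With the B cell level as a covariate the median was -0.57 without D12 and -0.48 with it. The stem cell markers of the crypt showed no common shift. Lgr5 differed by -0.30 ± 0.32, Ascl2 was higher by 0.99 ± 0.27, Sox9 higher by 0.43 ± 0.10 and Cd44 lower by 1.36 ± 0.32. A second probe of Sox9 gave 0.25 ± 0.19 and did not pass, and with D12 0 of the 12 members passed.

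**Figure D4:**
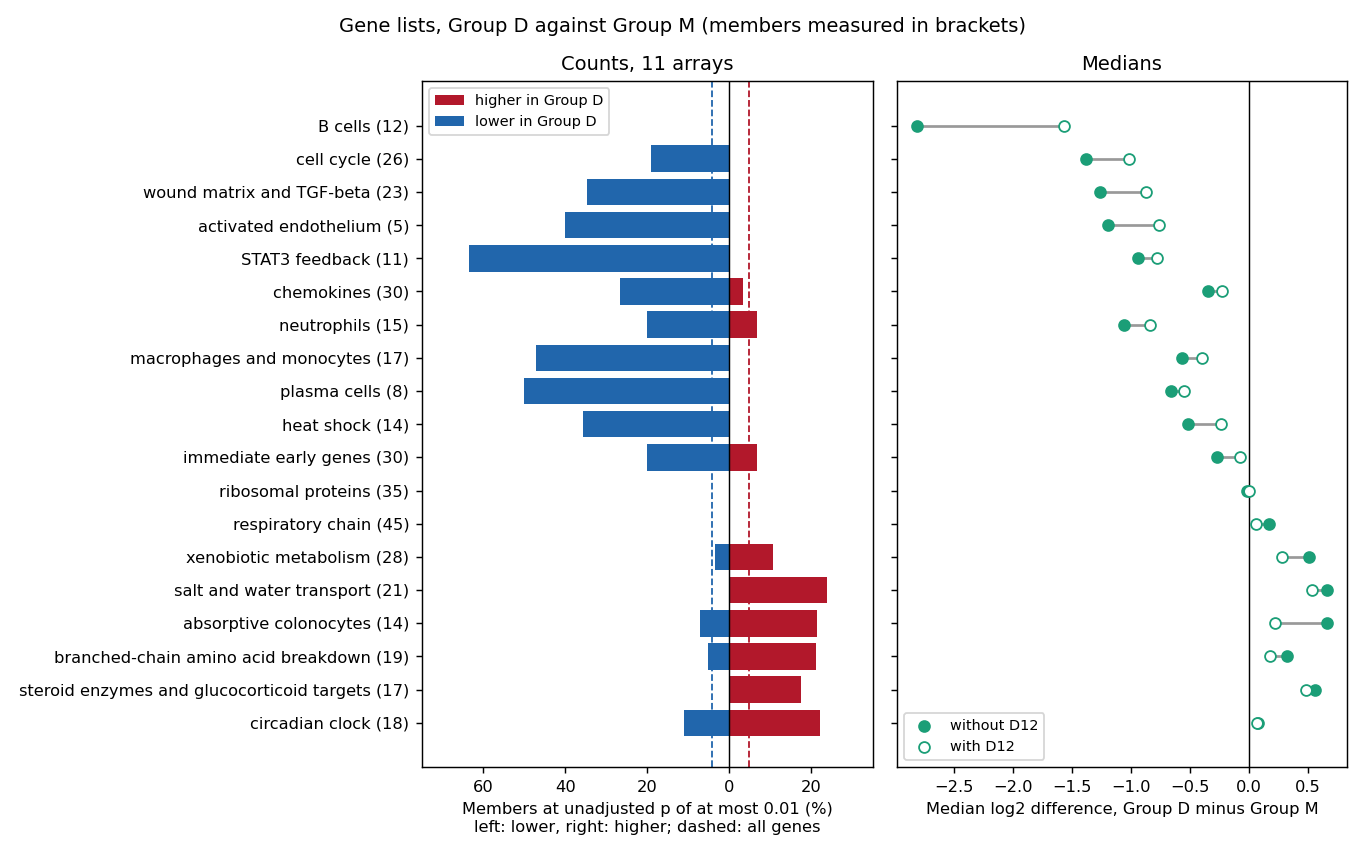
Left, percent of the members of 19 gene lists that were lower (to the left) or higher (to the right) in Group D without D12 by the unadjusted threshold of 0.01, with the share over all genes dashed at 4.3% and 4.72%. Right, median log2 difference of each list without D12 (filled) and with D12 (open). With D12 the median moves toward 0 in every list shown.

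Of 14 markers of absorptive colonocytes 3 were higher and 1 lower, with a median of 0.66. With D12 1 was higher and 0 lower, with a median of 0.22. With the B cell level as a covariate the median was 0.08 without D12 and -0.02 with it. Car1, a carbonic anhydrase, was at -0.29, 1.19, -0.33 and -0.22 in Group M, at 1.94, 2.39 and 1.24 in D9 to D11 and at -0.23 in D12, and Car4 was at 3.39, 4.30, 2.70 and 3.65 against 4.95, 5.07, 4.74 and 3.68. Tmigd1, an adhesion protein of epithelial cells, was at -4.83, -4.09, -4.57 and -4.59 against -1.79, -2.10, -2.16 and -3.64, with all 4 rats of Group D above Group M (adjusted p = 0.071 without D12 by limma). The hormone Guca2b was lower by 1.28 ± 0.39. The list level of the rats was -0.61, -0.01, -0.88 and -0.59 in Group M, 0.43, 0.52 and 0.00 in D9 to D11, -1.03 in D12 and -0.83 in C2.

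Of 21 genes of salt and water transport 5 were higher and 0 lower, with a median of 0.66. They include Scnn1a, a subunit of the epithelial sodium channel, at -0.11, 0.35, 0.07 and -0.15 in Group M, 0.62, 0.99 and 0.77 in D9 to D11 and -0.33 in D12, and Atp1b1 of the sodium pump, at 5.4, 6.07, 5.03 and 5.53 against 6.32, 6.35, 6.16 and 5.4. The cotransporter Slc12a2 was higher by 0.77 ± 0.21 and the anion channel Best2 by 0.92 ± 0.28. Kcnn4, a potassium channel, was the one of the 5 with all 4 rats above Group M, at 0.58 to 1.09 against 0.13 to 0.34. With D12 1 member of the list passed. Cldn23, of the tight junction, was higher by 1.15 ± 0.25 as 1 of 17 tight junction genes, of which 0 passed with D12. Without D12 this is 5.88%, near the 4.72% of all genes.

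The inflammasome sensor Nlrp6 and its adaptor were higher without D12. Nlrp6, which is expressed in epithelial cells, was at -1.60, -0.51, -3.69 and -2.0 in Group M, at 0.09, 0.30 and 0.28 in D9 to D11 and at -2.76 in D12, and Pycard, its adaptor, was at 1.04, 1.74, 0.35 and 0.52 against 1.81, 2.25, 2.23 and 1.14. These were the 2 of 24 genes of Toll-like receptors and the inflammasome that passed without D12. With D12 0 were higher and 1 was lower. Of 16 antimicrobial proteins 1 was higher, or 6.25%, near the 4.72% of all genes. It was Duoxa2, the maturation factor of an epithelial oxidase, at -3.76, -4.08, -3.89 and -4.01 in Group M and -2.91, -3.46, -2.35 and -2.39 in D9 to D12, with no overlap.

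Genes of metabolism were higher in part. In xenobiotic metabolism 3 of 28 were higher and 1 lower, with a median of 0.51, and 3 and 0 with D12, with a median of 0.28. Sult1a1, a sulfotransferase, was at -0.97, 0.38, -1.47 and -1.14 in Group M and at 0.99, 0.91, 1.79 and -0.06 in D9 to D12, and Gsta2, a glutathione transferase, at -1.46, -1.47, -1.92 and -1.37 against -0.35, -0.67, -0.74 and -0.99. In the breakdown of branched-chain amino acids 4 of 19 were higher and 1 lower, and 2 and 1 with D12. Dbt, a subunit of the pathway's dehydrogenase, was higher by 0.75 ± 0.14 and the mitochondrial transaminase Bcat2 by 0.87 ± 0.21, whereas its cytosolic counterpart Bcat1 was lower by 1.25 ± 0.36. Acss2, which activates acetate, was higher by 0.95 ± 0.28 as 1 of 10 genes of short-chain fatty acid handling, of which 0 passed with D12. Of 21 genes of retinoid metabolism 3 were higher, Adh4 among them with Aldh1a1 (by 1.2 ± 0.27) and Adh1c (by 0.86 ± 0.27), and 1 was lower, Aldh1a3. With D12 1 was higher and 2 were lower. In fatty acid oxidation Ppara was higher by 1.52 ± 0.39 and Angptl4 lower by 2.07 ± 0.52, and with D12 only the latter passed. Genes of the respiratory chain (45), ribosomal proteins (35), cholesterol synthesis (20) and hypoxia and glycolysis (20) had 0 members past the unadjusted threshold, with medians of 0.17, -0.02, 0.06 and -0.07.

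In the muscle and nerve layers few genes passed. Both Ano1 and Etv1 of the 3 markers of interstitial cells of Cajal were higher, by 0.79 ± 0.23 and 0.69 ± 0.21, and the third, Kit, differed by 0.64 ± 0.20 and did not pass. A second probe of Ano1 gave 0.71 ± 0.31 and did not pass, and with D12 0 of the 3 passed. Ano1 was at 2.62, 3.38, 2.42 and 2.76 in Group M, at 3.49, 3.62 and 3.65 in D9 to D11 and at 2.37 in D12. Of 12 smooth muscle genes Myocd was lower and Lmod1 higher, of which Myocd alone passed with D12, and Acta2 and Myh11 did not pass. Of 16 enteric neuron markers 1 was higher, or 6.25%, near the 4.72% of all genes. It was the filament gene Prph, by 0.54 ± 0.13, with all 4 rats of Group D, from -0.45 to -0.10, above Group M, from -0.86 to -0.55. The glial filament Gfap was at -5.82, -4.96, -4.87 and -5.28 in Group M and in none of D9 to D11 well above background, at least 4.20-fold lower, but D12 was at -5.07. The second glial marker S100b differed by 0.33 ± 0.18. Among 12 goblet cell and 13 enteroendocrine cell markers 0 passed, with medians of -0.23 and 0.05, and with D12 1 goblet cell marker was lower.

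Clock genes, which cycle through the day in most tissues, differed in both directions. Of 18 measured 4 were higher and 2 lower, and 1 and 1 with D12. Per2, a repressor of the clock, was at -2.02, -1.52, -1.80 and -1.72 in Group M and at 0.32, -0.36, -0.84 and -0.95 in D9 to D12, with no overlap and a difference of 1.31 ± 0.31 with D12. Dbp, an activator of clock output, was at 2.30, 2.24, 0.69 and 1.73 in Group M, at 3.45, 4.01 and 3.78 in D9 to D11 and at 1.48 in D12, and its relative Tef was at 0.33, 0.23, -0.96 and -0.19 against 1.48, 1.64, 1.27 and -0.10. Both lay apart from Group M in D9 to D11 alone. Nfil3, which represses through the sites that Dbp and Tef bind, was at -2.33, -1.85, -0.94 and -1.86 in Group M and at -4.27, -4.05, -3.80 and -1.21 in D9 to D12. Bmal1, the driver of the clock, was at -0.35, 0.08, 0.69 and 0.02 against -1.11, -1.5, -1.13 and -0.63, with no overlap. Within Group C alone Dbp ranged from 1.5 to 3.85 and Bmal1 from -1.11 to 0.71. The time of day at which each rat was sacrificed was not used here.

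The Per2 promoter, chr9:99496944-99497243 on the minus strand, is shown because it holds the site of Dbp, Tef and Nfil3, the D box TTATGTAA, in capitals.
Per2: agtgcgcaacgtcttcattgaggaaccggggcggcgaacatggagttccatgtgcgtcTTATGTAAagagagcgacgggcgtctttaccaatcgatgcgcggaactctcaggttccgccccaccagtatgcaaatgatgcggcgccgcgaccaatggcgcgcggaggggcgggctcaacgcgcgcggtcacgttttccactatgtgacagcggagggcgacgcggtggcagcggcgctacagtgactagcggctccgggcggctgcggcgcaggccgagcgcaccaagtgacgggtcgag
Among 15 clock genes with a promoter in the table Per2 is the 1 with this match, against 0.881% of all promoters.

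**Figure D5:**
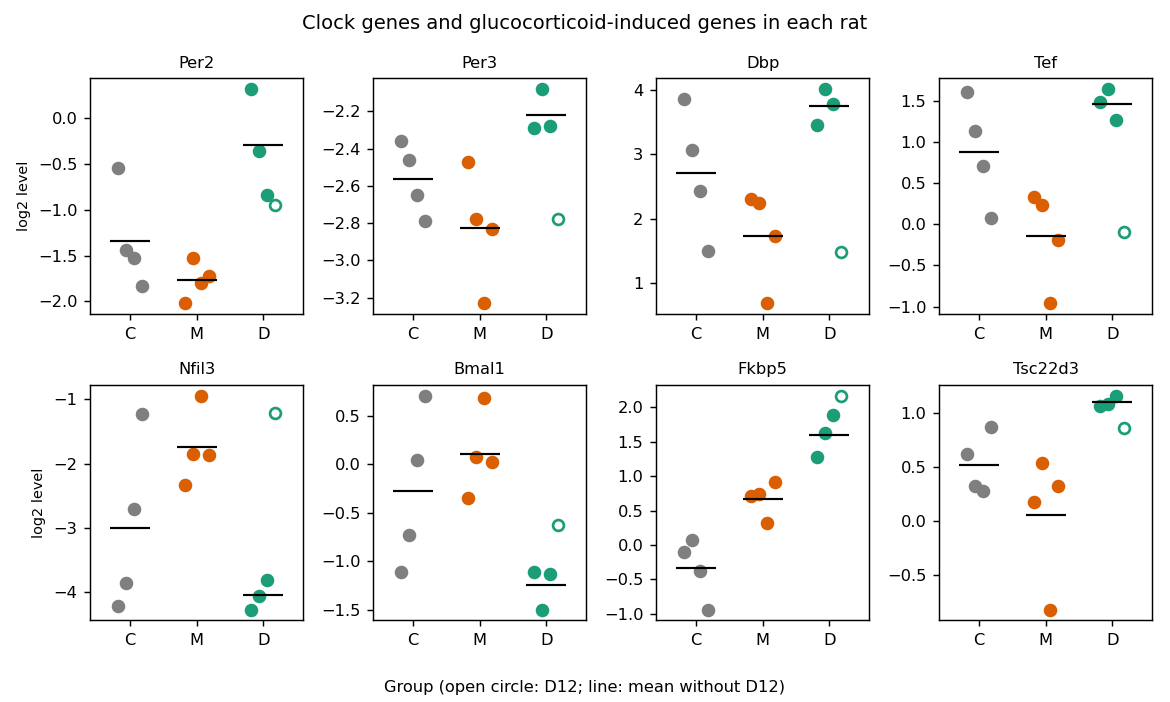
Log2 level (vertical axis) of 6 clock genes and 2 glucocorticoid-induced genes in each rat of Groups C, M and D, with the mean of each group without D12 as a line and D12 as an open circle. For Per2, Bmal1, Fkbp5 and Tsc22d3 all 4 rats of Group D lie on one side of Group M.

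Steroid enzymes and glucocorticoid targets were higher in 3 of 17 and lower in 0, with a median of 0.56, and in 3 with 1 lower with D12. Fkbp5, a chaperone of the glucocorticoid receptor that the hormone induces, was at 0.71, 0.74, 0.32 and 0.91 in Group M, at 1.28, 1.63, 1.89 and 2.17 in D9 to D12 and at -0.10, 0.07, -0.38 and -0.94 in Group C. The 3 groups did not overlap, and the difference from Group M was 0.93 ± 0.25 without D12 and 1.07 ± 0.24 with it (adjusted p = 0.101 and 0.151 by limma). Tsc22d3, another glucocorticoid-induced gene, was at 0.18, 0.54, -0.82 and 0.32 in Group M and at 1.06, 1.08, 1.16 and 0.86 in D9 to D12. The related targets Sgk1 and Per1 differed by 0.77 and 0.14 and did not pass. Cyp11a1, the first enzyme of steroid synthesis, was the member lower with D12, at -4.01, -4.97, -2.25 and -4.11 in Group M and -5.11, -7.26, -5.15 and -5.20 in D9 to D12.

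Of the EGF family, Ereg was joined by Areg, higher by 1.08 ± 0.31, whereas Hbegf was lower by 2.68 ± 0.57, at -1.46, -2.03, -0.28 and -1.30 in Group M, -2.69, -4.32 and -4.85 in D9 to D11 and -0.21 in D12. The pancreatic-type proteases Prss3 and Try10, members of a family of near-identical genes whose probes may share targets, were at -3.29 or above in Group M for Prss3, at -3.69, -8.93 and -4.56 in D9 to D11 and at -0.58 in D12, whereas all of Group C was at -7.04 or below. Of 1158 genes named as olfactory receptors 9 (0.777%) were higher and 2 (0.173%) lower without D12, and 3 and 4 with it. Both shares without D12 lie below those of all genes, 4.72% and 4.3%, and 824 of the 1158 were well above background on no array. Of the 9 higher without D12, Olr35 was the one well above background on every array of the higher group. The growth factor gene Bmp5 was lower in all 4 rats of Group D, from -4.0 to -3.28 against -2.99 to -2.18. It was the 1 of 28 members of the list of Wnt, R-spondin and related signals that passed without D12. That is 3.57%, against 4.3% of all genes lower, and 2 members were lower with D12.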

How the data were processed

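RNA of a colon segment of 12 rats, each a separate animal, was hybridized to 12 Agilent 1-colour arrays, each with 62976 spots. The deposited intensity values were background-subtracted and detrended by the scanner software per the file headers, with coordinates on rn4. The authors' table of log2 values, quantile normalized by its values, was used as an alternative. For each array, log2 of the processed signal minus the log2 of the 75th percentile was taken, control spots and outlier spots were left out and spots of a probe averaged, giving 30367 probes. Names came from RefSeq by accession (18004), symbol (2320) or older symbol (626). The probe with the highest mean signal stood for a gene.

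Groups were compared with limma 3.58.1 (R 4.3.3) in a fit of all 3 groups, tested on simulated data, with Benjamini-Hochberg adjustment over all probes. P-values measure the spread between rats. Alternatives were other background correction, normalization, filters, weights, a replicate block, the study's own criterion, and leaving out each rat. Members and lists were chosen with earlier results of these data known. Named were up to 10 probes per direction past the adjusted threshold, well above background on every array and not overlapping, up to 4 members per list at an unadjusted p of at most 0.01, and the defining markers of cell types. Bmal1, Ccl11, Ccl12, Cyp11a1, Dnajb1, Fos, Hspa8, Jun, Jund, Kcnn4, Nr4a2, Per1 and Sgk1, and called probes outside that rule, were named after their values were seen. Results of some genes are not reported here.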

Additional observations from a re-analysis of the deposited data

Results flagged for a closer look

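In 189 lists and named probes, the 4 rats of each of the 3 groups were searched for 1 rat far from the rest by Dixon's test of the gap to the nearest rat over the range, 567 groups in all. Such a rat was found in 70 of them. The rate of about 1 in 20 for independent sets is no yardstick here, since lists and genes vary together. The named probes were also chosen from the fit without D12. That choice favours close values in D9 to D11, and thereby a D12 that stands apart. Of the 70, 37 were in Group D, 36 of these with D12 apart, 13 in Group M and 20 in Group C. List levels are relative to the mean of Group C and gene levels are log2 levels.

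D12 stood apart in the level of the lists activated endothelium (1.56), cell cycle (1.46), chemokines (0.92), cytokines (0.55), NF-kappaB subunits and feedback (1.25), STAT3 feedback (1.11), wound matrix and TGF-beta (1.41) and antimicrobial proteins (0.34). It also stood apart in the genes Olr35 (-4.40), Klhl7 (-3.27), Il1rap (-5.88), Thbs1 (-2.42), Rab7b (-3.21), Rcan1 (2.71), Ascl2 (-1.07), Ano1 (2.37), Selp (-0.61), Icam1 (1.09), Ccna2 (-0.07), Mcm2 (-0.78), Rrm2 (2.15), Ccl2 (2.73), Ccl17 (-2.23), Cxcl2 (-0.85), Osm (-4.32), Nfkb1 (0.87), Nlrp6 (-2.76), Socs3 (-1.08), Timp1 (4.87), Adamts4 (-4.41), Psat1 (-0.98), Ppara (-5.98), Bcat1 (0.25), Adh1c (5.15), Cyp2s1 (-0.23) and Nfil3 (-1.21). The part of D12 in the results was given by the values with and without it.

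In Group M, M6 stood apart in the level of the lists goblet cells (-0.10) and B cells (-1.18) and in the genes Arc (-2.34), Car1 (1.19), Ccl17 (-4.63), Tnfaip2 (-2.52), Psat1 (-4.26) and Bcat1 (-0.63). M7 stood apart in the list prostaglandin synthesis and breakdown (0.29) and in the genes Gnat3 (-5.16), Derl3 (0.20), Gsta2 (-1.92) and Bmp5 (-2.18). In Group D, D10 stood apart in the list squamous epithelium (0.11).

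In Group C, C2 stood apart in the level of the lists B cells (2.71), chemokines (0.69), Toll-like receptors and inflammasome (0.05), wound matrix and TGF-beta (0.55) and complement (0.34) and in the genes Thbs1 (-4.49), Samd4a (-2.78), Tmigd1 (-4.68), Cd44 (1.15), Tpsab1 (-3.37), Tnfaip2 (-1.65) and Fosl1 (-1.99). C1 stood apart in the lists pancreatic acinar and trypsin genes (0.21) and circadian clock (0.17). Among the other rats of Group C, the genes that stood apart were Prss3 in C3 (-7.04), Csf2 in C3 (-8.54), Pim1 in C3 (-5.34), Areg in C4 (-0.61), C3ar1 in C4 (-5.27) and Bmp5 in C4 (-3.24).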

How the results depend on the processing

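The count of probes that changed at the adjusted threshold, 52, and the count at an unadjusted p of at most 0.01, 2345, moved with the arrays used and with the processing. With all 12 arrays they were 6 and 1116. With only Groups M and D in the fit they were 11 and 1682 for 7 arrays and 4 and 768 for all 8. The adjusted count was 332 with normexp background correction, 15 after a shift of each array to its median and 267 when dim probes were left out, and the unadjusted count stayed within 1.5 times of 2345 in these. Quantile normalization, the authors' table and the outlier spots kept gave 59, 64 and 51. Array quality weights gave 6882 and 6555. The methods' analysis of variance with a Tukey test and a 2-fold change, without adjustment over probes, gave 807 probes. The cause of these shifts was not tested.

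With 1 rat left out, the adjusted count lay between 1 (without D10) and 4504 (without M6), and the unadjusted count between 1334 (without M8) and 5144 (without M6). The deviations of same-numbered rats of different groups from their group means correlated between -0.72 and 0.58. For rats of different numbers the range was -0.79 to 0.77. The ranges are alike and cannot decide whether the numbers pair the rats. With the replicate block the counts were 1 and 1148. A fit with the B cell list level as a covariate, chosen after seeing the data, gave 2 and 721 without D12 and 13 and 1175 with it. Of the 60 lists, none with a median over 0.3 in size changed sign under the alternatives planned at the start. With the covariate the medians of B cells and T cells changed sign without D12, and those of B cells, T cells, MHC class II genes and absorptive colonocytes with it. For B cells a median near 0 was fixed in advance, since the covariate is the level of that list itself. It was 0.03 without D12 and 0.07 with it. With the covariate 16 lists without D12 and 22 with it moved by more than their spread. The number of rats limits the precision, and for 5941 of 30367 probes no array was well above background.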
